A study of Rattus norvegicus with 10 samples.

Results

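Dcaf7 and 5 protein kinases that act with its product or beside it, Dyrk1a, Dyrk1b, Dyrk2, Gsk3a and Gsk3b, were examined in sorted rat β-cells. These 6 genes were taken by name from the 23918 genes with values. All 6 passed the filter on low counts, as did 12941 genes in all. Dcaf7 was included with its change between the groups already known, and the kinases were included as regulators of NFAT in β-cell replication. The changes of the 6 genes between the groups are therefore given as a description with no p-value, and counts of those past a threshold restate the choice.

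RNA was sequenced from FACS-sorted pancreatic β-cells of adult Sprague-Dawley rats, 48 h after transfection. One group received a negative control (siCtrl, replicates 1 to 5). In the other, Scrt1, which encodes a transcriptional repressor, was silenced with 4 pooled siRNAs (siScrt1, replicates A to E). Cells of both groups were sorted by autofluorescence and exposed to the same transfection reagent. The labels do not say whether the 5 libraries of a group came from separate rats, so p-values measure the spread between these libraries, which may be technical.

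DCAF7, also called WDR68 or HAN11, is a WD40 repeat protein that serves as a docking platform for DYRK1A, DYRK1B and HIPK2. It is also counted among the substrate receptors of the CUL4-DDB1 ubiquitin ligase. DYRK1A phosphorylates NFAT transcription factors, GSK3 kinases phosphorylate them further, and phosphorylated NFAT leaves the nucleus, whereas the phosphatase calcineurin has the opposite effect. DYRK1A also phosphorylates LIN52, a step in the assembly of the DREAM complex that keeps cells quiescent. Inhibitors of DYRK1A are known for driving β-cells into the cell cycle, and GSK3 inhibition has been used for the same purpose.

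SCRT1 is a zinc finger repressor of the Snail superfamily that recognises E-boxes containing CAGGTG, so the promoters of the 6 genes were searched for this motif. The RefSeq table held windows of 250 bases upstream of a start for 4 of the 6 genes, with 5 windows in all (build GRCr8). Dyrk1a and Dyrk2 had no entry. CCAAT and GGGCGG, core letters of common promoter elements, were searched in the same way on both strands. In these 5 windows no match overlapped a match to another of the motifs. Below are the window of Dcaf7, the gene with the largest change among the 6, at chr10:91473650-91473899 on the plus strand, and that of the downstream start of Dyrk1b, at chr1:92607204-92607453 on the plus strand, the window among the 5 that held CAGGTG. Capitals mark matches to CAGGTG or CCAAT on either strand.
Dcaf7: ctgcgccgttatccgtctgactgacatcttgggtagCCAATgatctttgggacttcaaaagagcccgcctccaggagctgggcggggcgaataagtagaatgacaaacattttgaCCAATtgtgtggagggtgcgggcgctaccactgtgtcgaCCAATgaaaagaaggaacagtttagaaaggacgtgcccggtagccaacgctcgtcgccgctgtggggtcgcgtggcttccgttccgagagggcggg
Dyrk1b: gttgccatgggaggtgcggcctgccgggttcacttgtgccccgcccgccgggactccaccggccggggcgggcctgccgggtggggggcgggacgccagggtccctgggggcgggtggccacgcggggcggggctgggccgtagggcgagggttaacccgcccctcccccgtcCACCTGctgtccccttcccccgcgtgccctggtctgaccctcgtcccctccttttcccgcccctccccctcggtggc

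The Dcaf7 window held CCAAT at 3 places, beginning 214, 135 and 96 bases before the start, and GGGCGG at 171 and 7 bases before it. It held no CAGGTG. Of 33469 rat windows of the same length, 34.0% held CCAAT and 2.52% held it at 3 or more places. The Dyrk1b window shown carried CAGGTG on the opposite strand, as CACCTG, 77 bases before the start, together with 7 matches to GGGCGG. Of all windows, 15.9% held CAGGTG and 30.5% held the GGGCGG letters. The upstream window of Dyrk1b (chr1:92606493-92606742) held 1 CCAAT and 1 GGGCGG, that of Gsk3a (chr1:89953515-89953764, minus strand) held 1 GGGCGG, and that of Gsk3b (chr11:76153250-76153499, minus strand) held none of the 3 motifs. GC content ranged from 34.4% for Gsk3b to 78.0% for the downstream start of Dyrk1b.

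The deposited values were estimated counts that the authors had scaled between libraries, summed here per gene and called scaled counts. Totals of recovered reads ranged from 11901342 to 17444034 per library and did not differ detectably between groups (mean and SD of 5 siCtrl libraries 14139599 ± 1482962, of 5 siScrt1 libraries 14721995 ± 2049887; p = 0.635 by a two-sided exact permutation test). Scrt1 itself had scaled counts of 156 to 250 in siCtrl and 22.8 to 83.3 in siScrt1, with no overlap. Summed β-cell markers made up 102884 to 166031 CPM (counts scaled to a common library total) in siCtrl and 104869 to 150961 in siScrt1, and all 8 of them were present. Of other cell types, α-cell markers summed to 213 to 582 CPM and 210 to 463 CPM, nearly all of it Gcg. Duct markers summed to 188 to 267 CPM and 201 to 267 CPM, nearly all of it Krt7, and δ- and PP-cell markers to 16.6 to 74.7 CPM and 20.4 to 82.8 CPM. Immune markers summed to 2.16 to 4.36 CPM over all libraries, with the T-cell marker Cd3e at 0 in each, endothelial markers to at most 1.31 CPM and acinar markers to at most 0.771 CPM. Mesenchymal markers stood at 18.7 CPM in siCtrl 4 and 32.1 CPM in siScrt1 D, against 3.83 to 8.74 CPM in the other 8 libraries.

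Dcaf7 was lower in every siScrt1 library than in any siCtrl library. Its scaled counts were 2801, 2928, 3173, 2948 and 3033 in siCtrl 1 to 5 and 1990, 1975, 2276, 1745 and 1734 in siScrt1 A to E. The lowest siCtrl library thus lay above the highest siScrt1 library, and within siScrt1 the libraries D and E were the lowest. The siScrt1 mean of 1944 ± 222 was 34.7% below the siCtrl mean of 2977 ± 138 (± SD, n = 5 per group, here and for the other genes). The fitted change was -0.62 on the log2 scale (SE 0.0769, 95% interval -0.79 to -0.45). In pairs of libraries that carry the same number in the deposited table, the difference ranged from -0.81 to -0.48 and was negative in 5 of 5. Between 1577 and 3446 reads per library lay behind these values, all assigned to the single annotated transcript, ENSRNOT00000063858.2, of 5563 bases. In bulk RNA, fewer cells with the transcript and less transcript per cell cannot be told apart.

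Dcaf7 was 1 of the 6 genes past an adjusted p of 0.05 in the limma fit, against 1.05% of all genes tested, and 1 of the 6 whose groups did not overlap, against 3.51% of all genes tested. Both counts follow from the way Dcaf7 was chosen. Without siCtrl 4 and siScrt1 D, the libraries with the most mesenchymal marker RNA, the change of Dcaf7 was -0.59. The median change of all genes tested was 0.0035.

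**Figure D1:**
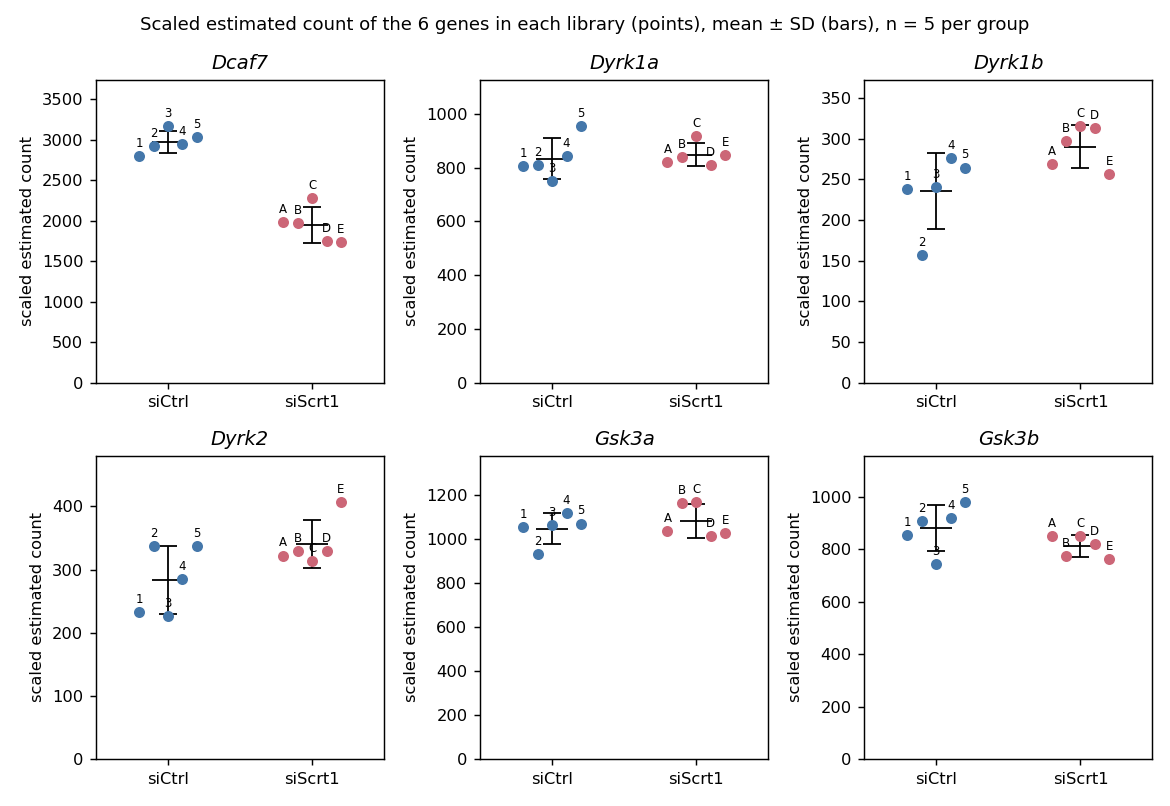
Scaled estimated count (y axis, from 0) of each of the 6 genes in every library, with siCtrl 1 to 5 in blue and siScrt1 A to E in red; bars give mean ± SD, n = 5 per group. The groups are apart for Dcaf7 (2801 to 3173 against 1734 to 2276) and overlap for the 5 kinase genes.

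For the kinase genes, whose products include the docking partners of DCAF7, the groups overlapped. Dyrk1a, the NFAT and LIN52 kinase whose human counterpart lies in the Down syndrome critical region, had scaled counts of 806, 811, 752, 842 and 956 in siCtrl 1 to 5 and 823, 841, 919, 809 and 848 in siScrt1 A to E. All 5 siScrt1 values lay within the siCtrl range. The means were 834 ± 75.6 and 848 ± 42.6, and the fitted change was 0.03 (log2, SE 0.0708, 95% interval -0.13 to 0.18). The sign of so small a value turned under some scalings, down to -0.0062 with all libraries.

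Dyrk1b, the closest relative of Dyrk1a and a kinase of quiescent cells, was less abundant. Its scaled counts were 238, 157, 241, 276 and 265 in siCtrl 1 to 5 and 268, 298, 316, 313 and 257 in siScrt1 A to E. Libraries B, C and D stood above the highest siCtrl library, A and E lay within the siCtrl range, and siCtrl 2 was the lowest of all. The means were 235 ± 46.5 and 290 ± 26.6, with a fitted change of 0.32 (SE 0.139, 95% interval 0.02 to 0.62). Without siCtrl 2 the change was 0.19.

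Dyrk2, a class 2 DYRK kinase that can phosphorylate NFAT and also takes part in an E3 ubiquitin ligase, had scaled counts of 232, 337, 226, 285 and 337 in siCtrl 1 to 5. In siScrt1 A to E they were 322, 330, 313, 330 and 407. Library E was above every siCtrl library and the other 4 lay within the siCtrl range. The means were 284 ± 53.9 and 340 ± 37.7, with a fitted change of 0.28 (SE 0.127, 95% interval 0.0031 to 0.55) that ranged from 0.20 to 0.35 when single libraries were left out. This interval is not adjusted either, and Dyrk2 did not pass an adjusted p of 0.05 in limma.

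The GSK3 genes encode the kinases that act after DYRK priming on NFAT and that also mark β-catenin and glycogen synthase. Gsk3a had scaled counts of 1056, 930, 1062, 1116 and 1070 in siCtrl 1 to 5 and 1036, 1165, 1167, 1015 and 1027 in siScrt1 A to E. Libraries B and C were above every siCtrl library and the other 3 lay within the siCtrl range. The fitted change was 0.05 (SE 0.0689, 95% interval -0.10 to 0.20). Gsk3b had 855, 909, 743, 922 and 980 in siCtrl 1 to 5 and 851, 776, 851, 822 and 765 in siScrt1 A to E. All 5 siScrt1 values of Gsk3b lay within its siCtrl range, with a fitted change of -0.11 (SE 0.0767, 95% interval -0.28 to 0.05).

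**Figure D2:**
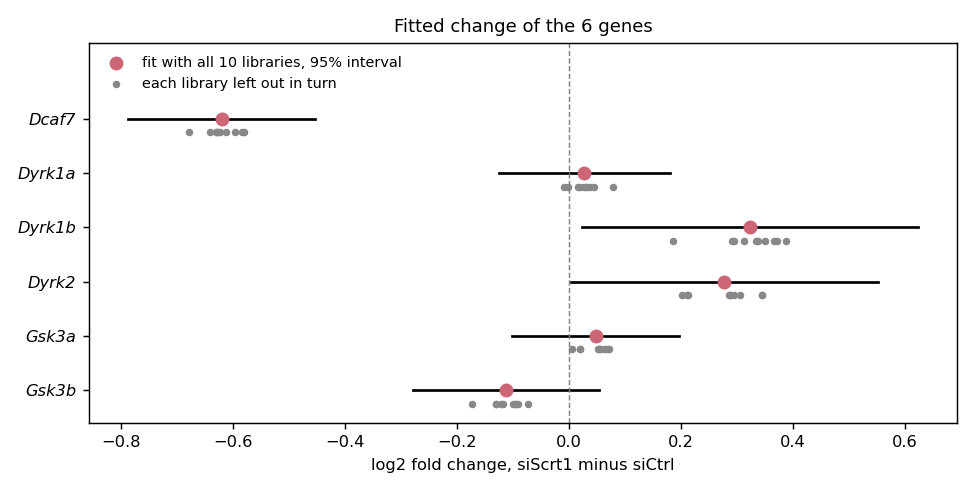
Fitted log2 fold change, siScrt1 minus siCtrl (x axis), of each gene (y axis); red points with bars are the fit with all 10 libraries and its 95% interval, and grey points leave out each library in turn. Dcaf7 lies at -0.62 with its interval below 0, and the intervals of Dyrk1a, Gsk3a and Gsk3b include 0. Dyrk1b and Dyrk2 lie near 0.3 with unadjusted intervals above 0, and neither passed an adjusted p of 0.05 in limma.

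Relative to its kinase partner, the level of Dcaf7 moved as its own count did. TPM here is transcript abundance per length, scaled between libraries by the authors. Its library totals were not equal and ranged from 821278 (siCtrl 2) to 1153952 (siCtrl 3). The ratio of Dcaf7 to Dyrk1a in TPM was 1.71, 1.77, 2.08, 1.72 and 1.56 in siCtrl 1 to 5. In siScrt1 A to E it was 1.19, 1.16, 1.22, 1.06 and 1.01. The ratio did not overlap between groups (1.77 ± 0.189 against 1.13 ± 0.0894, SD, n = 5 each). This restates the lower level of Dcaf7, for which it was chosen, beside a Dyrk1a level that changed little. The summed TPM of the 3 DYRK genes was 29.2 ± 2.81 in siCtrl and 31.7 ± 1.36 in siScrt1, and that of the 2 GSK3 genes was 85.8 ± 5.26 and 84.5 ± 4.20. Dyrk1a made up 67.1% ± 2.08 of the DYRK sum in siCtrl and 62.9% ± 1.36 in siScrt1. These shares ran from 64.7% to 70.3% in siCtrl and from 60.9% to 64.3% in siScrt1, a difference that was not tested. The ratio of Gsk3a to Gsk3b was 1.23 ± 0.166 and 1.37 ± 0.142.

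Per length, the GSK3 transcripts were the most abundant of the 6 and the DYRK transcripts the least. Over all 10 libraries the mean TPM was 47.9 ± 3.79 for Gsk3a, 37.2 ± 3.23 for Gsk3b, 28.5 ± 6.56 for Dcaf7, 19.8 ± 1.39 for Dyrk1a, 7.17 ± 1.28 for Dyrk1b and 3.52 ± 0.602 for Dyrk2 (SD, n = 10). By group, Dcaf7 stood at 34.4 ± 1.48 TPM in siCtrl and 22.5 ± 2.60 TPM in siScrt1, which brought it close to Dyrk1a at 19.6 ± 1.79 and 19.99 ± 1.02 TPM. In siCtrl the level of Gsk3a was above that of 87.8% of genes tested, that of Dcaf7 above 82.8%, that of Dyrk1a above 70.1% and that of Dyrk2 above 24.6%.

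The order was tested by within-library TPM ratios of the 5 neighbouring pairs (exact two-sided sign-flip permutation test over 10 libraries, adjusted over the 5 pairs, smallest possible p 0.00195). The pairs were neighbours in the order of mean level over these same libraries. The test takes the 10 libraries as separate units. Libraries of the same number in the deposited table were taken to pair the samples, as described below. Taken as 1 unit each, such pairs leave 5 units, and no exact p below 0.0625 can be reached. The p-values given here hold only if the 10 libraries are separate units. Gsk3a exceeded Gsk3b in 10 of 10 libraries, by 1.29-fold (range 1.02 to 1.56, adjusted exact p = 0.00244). Gsk3b exceeded Dcaf7 in 9 of 10, by 1.34-fold (0.899 to 1.79, adjusted exact p = 0.00391), and siCtrl 3 was the exception. Dcaf7 exceeded Dyrk1a in 10 of 10 by 1.41-fold, Dyrk1a exceeded Dyrk1b in 10 of 10 by 2.80-fold, and Dyrk1b exceeded Dyrk2 in 10 of 10 by 2.03-fold (adjusted exact p = 0.00244 for each).

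The place of Dcaf7 in this order rests in part on its lower siScrt1 level, for which it was chosen. The ratios of both pairs with Dcaf7 draw on those values and are not evidence for its place. In the 5 siCtrl libraries alone the mean log2 ratio of Gsk3b to Dcaf7 was 0.17, against 0.67 in siScrt1. No pair can pass an exact sign-flip test there, since 5 libraries allow no exact p below 0.0625. TPM also depends on the annotated transcripts, whose lengths ran from 1449 to 5705 bases for these genes. With the longest transcript of each gene in place of the sum, Gsk3a fell below Gsk3b, Gsk3b below Dcaf7 and Dyrk1b below Dyrk2. For Gsk3a, Gsk3b and Dyrk1b the longest transcript is the less abundant one. It made up 18.6%, 30.9% and 24.6% of the gene's TPM in siCtrl, so this setting drops most of their signal.

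**Figure D3:**
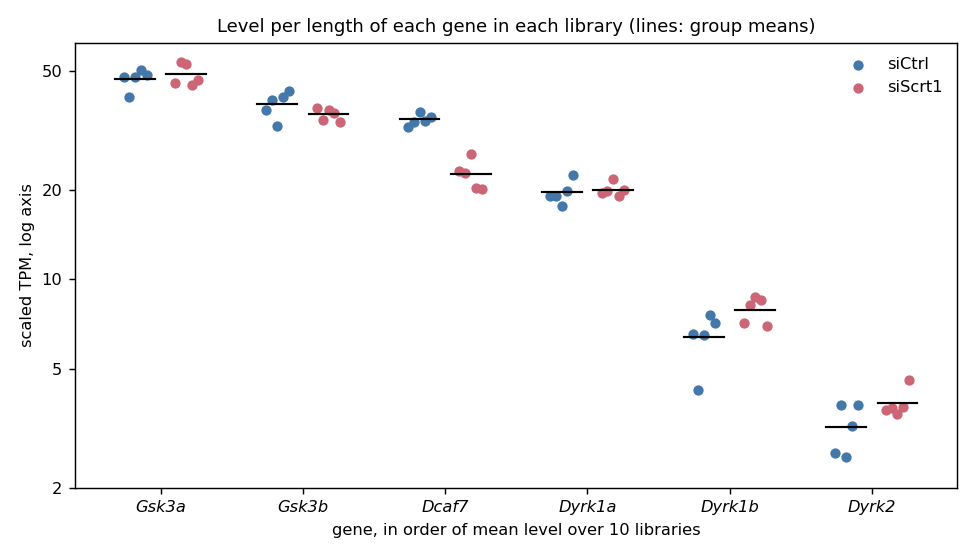
Scaled TPM (y axis, log scale) of the 6 genes in each library, ordered by mean level, with siCtrl in blue, siScrt1 in red and group means as lines. Levels run from 47.9 TPM for Gsk3a to 3.52 TPM for Dyrk2, and the groups are apart at Dcaf7 (34.4 against 22.5 TPM) and overlap at the other 5 genes.

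Of the kinase genes, 3 had an alternative transcript with reads, and in each the shares overlapped between the groups. The less abundant transcript of Dyrk1b, ENSRNOT00000087157.1, made up 24.6% ± 4.47 of the gene's TPM in siCtrl and 26.4% ± 9.08 in siScrt1, where library A stood at 41.0%. That of Gsk3a, ENSRNOT00000084530.1, made up 18.6% ± 2.61 and 18.9% ± 3.77, and the shares overlapped, with siCtrl 2, siScrt1 A and siScrt1 D between 22.3% and 23.4% and the other 7 libraries between 14.6% and 17.7%. That of Gsk3b, ENSRNOT00000077612.1, made up 30.9% ± 4.02 and 31.3% ± 2.09. At the level of transcripts, 73 of 17580 tested passed an adjusted p of 0.05 (0.415%), and of the 9 transcripts of these genes the one of Dcaf7 was among them, again as its choice implies.

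**Figure D4:**
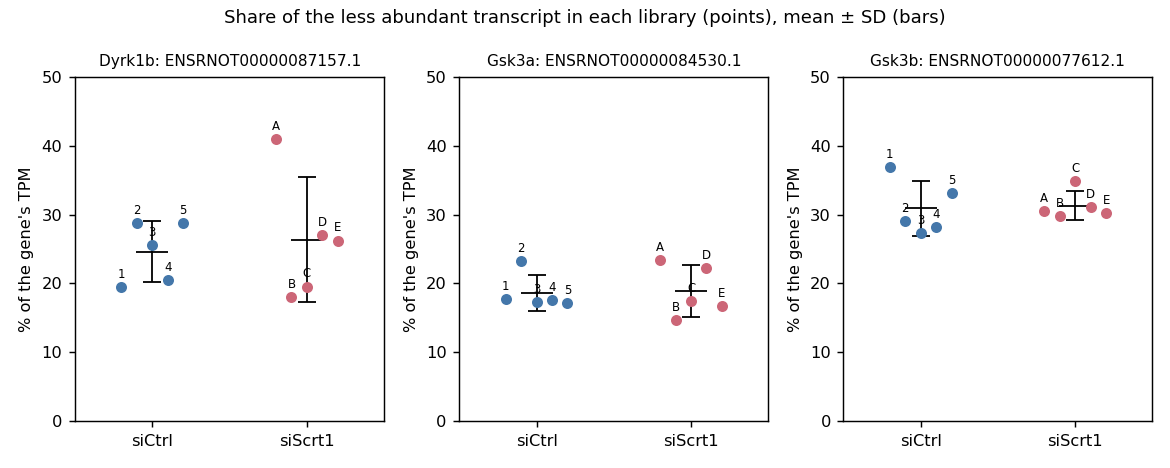
Share of the less abundant transcript in the gene's TPM (y axis, percent) in each library for Dyrk1b, Gsk3a and Gsk3b, with mean ± SD as bars, n = 5 per group. The groups overlap for all 3 genes (24.6% and 26.4%, 18.6% and 18.9%, 30.9% and 31.3%), and siScrt1 A is the highest library for Dyrk1b at 41.0%.

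The genes whose profiles over the 10 libraries were most like that of Dcaf7 were Arl2bp, Erc2, Lbh, Sh3glb1 and Rnf11l1. Likeness was the root mean square difference between log2 profiles, each centred on its own mean. It was 0.0952 for Arl2bp, which binds the small GTPase ARL2, 0.104 for Erc2, a scaffold of presynaptic active zones, 0.105 for Lbh, a transcription cofactor, 0.109 for Sh3glb1, the membrane-curving endophilin B1, and 0.111 for Rnf11l1. The median over the other genes tested was 0.381, and the 5 kinase genes stood between 0.293 (Gsk3b) and 0.523 (Dyrk1b). Arl2bp, for example, had scaled counts of 1220, 1399, 1436, 1225 and 1327 in siCtrl 1 to 5 and 966, 1017, 959, 843 and 771 in siScrt1 A to E, with D and E again lowest. Libraries D and E were also lowest for Erc2 and Rnf11l1. Lbh was lowest in E and A (220 and 247) and Sh3glb1 in B and D (600 and 617). The profiles share their libraries and the difference between groups, so the likeness is a description over 10 points.

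The other genes of the pathway were taken from 6 lists that together held 88 tested genes. Of these, 4 passed an adjusted p of 0.05 in the limma fit over all genes, 2 raised and 2 lowered. This is 4.55% of the 88, against 1.05% of all genes tested, of which 0.371% were raised and 0.68% lowered, and the median change was 0.01. Of the 4 called genes, Nfatc1, Nfatc2 and Ppp3r1 had been picked by the study on these samples and are not independent evidence. For Nfatc1 and Nfatc2 the study also reports qPCR in sorted β-cells given the control or the Scrt1 siRNAs. The lists were also chosen with earlier results of these data known. The share of called genes and the call of Akt1 are therefore descriptions and not independent evidence either. With siCtrl 4 and siScrt1 D left out together, 0 of the 88 and 25 of all genes tested passed in limma. The changes of the 4 genes with these 8 libraries were -0.80 for Akt1 (limma adjusted p = 0.0621), -0.41 for Ppp3r1 (0.0676), 0.77 for Nfatc1 (0.1) and 1.09 for Nfatc2 (0.16). They were close to those with all 10 given below. With 10 libraries, 13 of the 88 had an unadjusted p under 0.05 in limma. Of all genes tested with 10 libraries, 11.1% did, which is the background for the unadjusted counts of the lists.

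Among other DYRK and HIPK kinases, 0 of 4 tested genes passed in limma or limma-voom and 0 had an unadjusted p under 0.05, with a median change of -0.00055 and a range from -0.12 to 0.22. The most abundant were Hipk3 (30.4 TPM in siCtrl, change 0.07), Hipk1 (25.6 TPM, -0.12) and Hipk2 (17.9 TPM, 0.22), nuclear kinases related to the DYRK family. Of the known partners of DCAF7, 0 of 10 passed in limma or limma-voom and 0 had an unadjusted p under 0.05. Their median change was 0.14, with a range from -0.12 to 0.27, beside a median of 0.0035 over all genes tested. A joint shift of the partners was not tested. HIPK2 binds DCAF7 as the DYRK kinases do, and the next most abundant partners were Diaph1, an actin nucleator (15.2 TPM, 0.11), Fam53c (14.7 TPM, 0.06) and Pcgf3, a Polycomb RING protein (11.5 TPM, 0.08).

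Of the CUL4 ligase and its other DCAF receptors, 0 of 22 passed in limma and 1, Dcaf11, in limma-voom, and 3 had an unadjusted p under 0.05. The median change was -0.04. The ligase core was represented by Rbx1, its RING subunit (121 TPM in siCtrl, change -0.04), Ddb1, its adaptor (73.2 TPM, -0.04), and the scaffold Cul4b (37.7 TPM, -0.10), beside the receptor Dcaf8 (38.3 TPM, 0.09). Dcaf11, another receptor of this ligase, singled out after its values were seen, had the lowest change of the list at -0.42 (SE 0.0947, adjusted p = 0.058) and stood at an adjusted p of 0.00868 with the library number as a block. Its groups overlapped.

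Of the DREAM complex and cell cycle substrates of these kinases, 0 of 16 passed in limma or limma-voom and 1, Ccnd2, had an unadjusted p under 0.05. The median change was 0.02. Ccnd2, the cyclin D2 of β-cell growth (232 TPM in siCtrl), had a change of 0.26 (SE 0.0679, adjusted p = 0.115) and its groups did not overlap. Ccnd1 (70.5 TPM) had 0.10, the cyclin-dependent kinase inhibitor Cdkn1b (50.4 TPM) 0.02, and the histone-binding Rbbp4 (31.2 TPM) -0.18. Lin52, the DREAM substrate of DYRK1A, was read only 25 to 50 times per library and had a change of -0.29 (95% interval -0.69 to 0.12).

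Of the GSK3 complexes and regulators, 1 of 20 was lowered and 0 raised, with a median of -0.01. The lowered gene was Akt1, encoding a kinase that inactivates GSK3, with mean scaled counts of 2150 in siCtrl and 1160 in siScrt1 and a change of -0.90 (SE 0.132, adjusted p = 0.00568). Akt2 had a change of 0.02 and did not pass. The most abundant genes of the list, Ppp1ca (121 TPM, -0.03), the priming kinase gene Csnk1a1 (107 TPM, -0.09), the β-catenin gene Ctnnb1 (83.0 TPM, -0.04) and Csnk2b (60.4 TPM, 0.01), did not pass either.

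Of the calcineurin and NFAT genes, 2 of 17 were raised and 1 was lowered, with a median of 0.02. Nfatc1 had a change of 0.77 (SE 0.131, adjusted p = 0.0134) and Nfatc2 of 1.09 (SE 0.213, adjusted p = 0.0293). The regulatory subunit of calcineurin, Ppp3r1, had a change of -0.40 (SE 0.0626, adjusted p = 0.00752). The products are 2 NFAT factors and a subunit of the phosphatase that the DYRK and GSK3 kinases oppose. The call of Nfatc2 held in 4 of the 10 fits that left out 1 library, being lost without siCtrl 3, siCtrl 4, siScrt1 B, siScrt1 C, siScrt1 D or siScrt1 E, and that of Nfatc1 was lost without siScrt1 D. The most abundant members, calmodulin genes, included Calm3 (193 TPM, 0.10) and 2 loci both named Calm2 (570 and 303 TPM, -0.23 and -0.22), which may share reads and are uncertain. None of the 3 calmodulin loci passed.

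**Figure D5:**
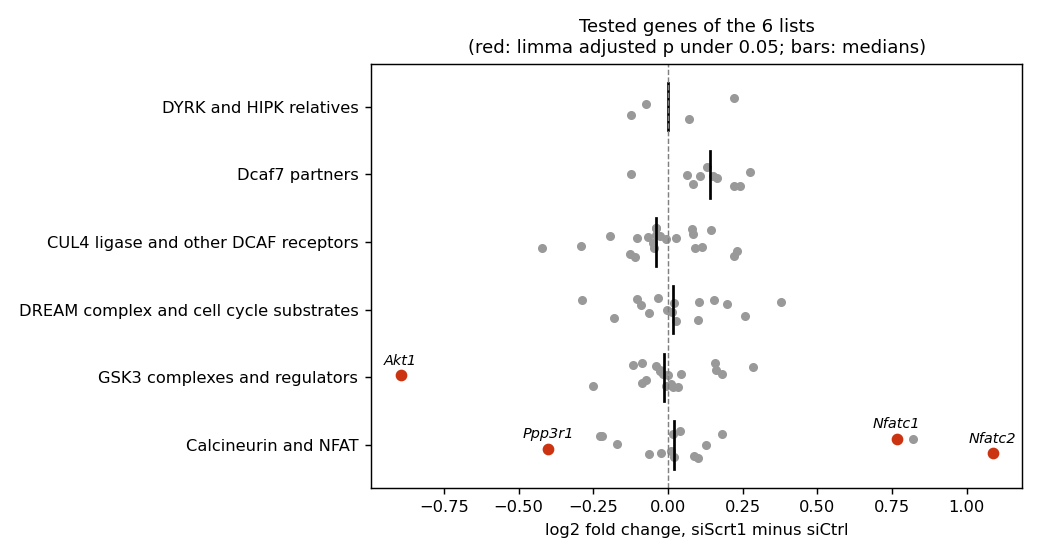
Log2 fold change, siScrt1 minus siCtrl (x axis), of each tested gene in the 6 lists (y axis); red points passed an adjusted p of 0.05 in limma and are named, grey points did not, and black bars are list medians. List medians lie between -0.04 and 0.14, and the 4 called genes lie at -0.90 (Akt1), -0.40 (Ppp3r1), 0.77 (Nfatc1) and 1.09 (Nfatc2).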

How the data were processed

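Per the labels and the study's methods, RNA of sorted β-cells was made into Illumina libraries and single-end reads were assigned to the rat transcriptome (Rnor6) with kallisto, after FastQC and Trimmomatic. Versions are not given in the sources used here. The deposited table holds, for 31715 transcripts, estimated counts and TPM values, which are a signal that the authors scaled between libraries with sleuth; a further 9363 annotation rows held no value. Dividing by the commonest low value of a library gave recovered reads, of which 75.9% to 76.5% per gene were whole (within 0.01 read), so no count model was used.

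Values were summed per gene. A gene was kept with 15 reads in total and, in 5 or more libraries, a CPM equal to 10 reads at median depth, and a transcript with 5 reads in 47% of libraries. limma 3.58.1 (R 4.3.3) was fitted to log2(scaled count + 0.5) with an intensity trend and group as the only factor, with Benjamini-Hochberg adjustment over all genes tested and a threshold of 0.05. Fold changes are on this log2 scale, which understates changes of low genes. Fits were tested on simulated data. Permutation tests used Python 3.11.15. A library's total limits the precision of low genes such as Dyrk2 (210 reads at the lowest).

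The members and lists were chosen with earlier results of these data known. Named genes were the 6 members, Scrt1, every list gene past the threshold, up to 4 of the most abundant tested genes of each list and the 5 most like Dcaf7; Dcaf11, Lin52 and Akt2 were added after their values were seen. Of 99 listed symbols, 5 were not matched.

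Each group carries library numbers 1 to 5 in the deposited table, but GEO's labels share none. Residuals of same-numbered libraries correlated at 0.13 to 0.35 in all 5 pairs. Each siCtrl library correlated best with the siScrt1 library of its number. The reverse held except for siScrt1 B, whose correlation with siCtrl 2 was 0.13. The numbers were therefore taken to pair the samples. The main fit leaves the pairing out, and a fit with the number as a block was an alternative. Other alternatives changed the scaling, the filter, the measure, the pseudocount or the test, or left out libraries.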

Additional observations from a re-analysis of the deposited data

Results flagged for a closer look

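In 52 groups of 5 libraries, 6 held a library far from the other 4 by Dixon's criterion, and chance flags about 1 group in 20, or 2.6 here. The scaled count of Dyrk2 in siScrt1 E was 407, against 313 to 330 in the other siScrt1 libraries. The main Gsk3a transcript, ENSRNOT00000027677.5, made up 76.7% of the gene in siCtrl 2, against 82.3% to 82.9% in the other siCtrl libraries. The main Gsk3b transcript, ENSRNOT00000003867.6, made up 65.0% in siScrt1 C, against 68.9% to 70.2%. The ratio of Dyrk1a to Dyrk1b was 4.48 in siCtrl 2, against 2.61 to 3.14, and that library had the lowest Dyrk1b count. Mesenchymal markers summed to 18.7 CPM in siCtrl 4 (3.83 to 6.94 in the other siCtrl libraries) and to 32.1 CPM in siScrt1 D (5.01 to 8.74 in the other siScrt1 libraries), and these 2 libraries carry the same number in the deposited table.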

How the results depend on the processing

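The change of Dcaf7, a gene chosen for it, ranged from -0.65 to -0.59 over 10 fits with another setting. It ranged from -0.68 to -0.58 over the 10 that left out 1 library and the one that left out siCtrl 4 and siScrt1 D, chosen after seeing the data. Leaving out libraries gave -0.0080 to 0.08 for Dyrk1a, 0.19 to 0.39 for Dyrk1b, 0.20 to 0.35 for Dyrk2, 0.0057 to 0.09 for Gsk3a and -0.17 to -0.07 for Gsk3b. The replicate block gave 259 genes in place of 136 and 29 transcripts in place of 73, and it added Dcaf11 to the 4 called list genes; it changed no other call in the lists or among the 6 genes. The cause was not tested. Without single libraries, or siCtrl 4 and siScrt1 D together, 25 to 133 genes and 0 to 5 list genes passed. List genes numbered 2 (Akt1 and Ppp3r1) without siScrt1 D and 0 without both libraries, where the changes were -0.80 (Akt1), -0.41 (Ppp3r1), 0.77 (Nfatc1) and 1.09 (Nfatc2). Transcripts ranged from 16 (without siCtrl 5 or siScrt1 E) to 67. Over fits without 1 library the log2 ratios were 0.33 to 0.40 (Gsk3a over Gsk3b), 0.37 to 0.48 (Gsk3b over Dcaf7), 0.43 to 0.55 (Dcaf7 over Dyrk1a), 1.41 to 1.52 (Dyrk1a over Dyrk1b) and 0.98 to 1.12 (Dyrk1b over Dyrk2). In siCtrl alone, where 5 libraries cannot pass the exact test, they were 0.28, 0.17, 0.82, 1.63 and 1.00. With the longest transcript alone, Gsk3a over Gsk3b was -0.38, Gsk3b over Dcaf7 -1.27 and Dyrk1b over Dyrk2 -0.99. That transcript is the less abundant one of Gsk3a, Gsk3b and Dyrk1b. The difference in mean depth, 582396 reads, ranged from -98113 (without siScrt1 B) to 1287560.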
